A study of Mus musculus with 2 samples.

Results

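The interferon-gamma axis was described here by 7 genes of the 32285 in the count matrices: the cytokine gene Ifng, the receptor genes Ifngr1 and Ifngr2, the kinase genes Jak1 and Jak2, the target gene Irf1 and the feedback inhibitor gene Socs1. They were chosen by symbol, and each symbol had 1 row in the files. Live CD45+ leukocytes had been sorted from tumours in the liver of C57BL/6 mice, and each library was a droplet 3′ single-cell RNA-seq run. All mice ate the MCD (methionine- and choline-deficient) diet and carried tumours grown in the liver from luciferase-labelled RIL-175 cells, a mouse hepatocellular carcinoma line. One library, AKK, came from mice given 5e9 colony-forming units (CFU) of the gut bacterium Akkermansia muciniphila by mouth, and the other, PBS, from mice given phosphate-buffered saline instead. Dosing started 2 weeks ahead of the diet, the diet preceded implantation by 2 weeks, and dosing paused for 6 days after surgery. The sources used here give neither the age of the mice nor how many were pooled in a library. With 1 library per group, nothing was tested between the groups: "higher" and "lower" describe these 2 libraries, and each 95% interval covers counting error only.

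Interferon-gamma is secreted mainly by natural killer (NK) cells, innate lymphoid cells and activated T cells. It binds the IFNGR1 chain, IFNGR2 joins the complex, and the kinases JAK1 (on IFNGR1) and JAK2 (on IFNGR2) then pass the signal on by phosphorylation. IRF1 is a transcription factor made early in this response, and SOCS1 is induced by the pathway and blocks the kinases. In mouse T helper cells that make the cytokine, the Ifngr2 transcript is known to be low.

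Irf1 and Socs1 are the members that the pathway itself induces, so their promoters are shown. Each window holds the 250 bases before the transcription start in the RefSeq table for GRCm38.p6, the assembly behind mm10, which the submitters' processing notes name. In capitals are matches to TTCNNNGAA, the core of an interferon-gamma activated site, in Irf1 (chr11:53769764-53770013, plus strand), and to GAAA, any 2 bases and GAAA again, the core of an interferon-stimulated response element, in Socs1 (chr16:10785537-10785786, minus strand).
Irf1: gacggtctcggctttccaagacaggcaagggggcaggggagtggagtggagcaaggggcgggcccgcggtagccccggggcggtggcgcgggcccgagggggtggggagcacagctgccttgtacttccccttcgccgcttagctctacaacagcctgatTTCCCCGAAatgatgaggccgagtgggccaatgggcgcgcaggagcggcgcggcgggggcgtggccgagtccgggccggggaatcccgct
Socs1: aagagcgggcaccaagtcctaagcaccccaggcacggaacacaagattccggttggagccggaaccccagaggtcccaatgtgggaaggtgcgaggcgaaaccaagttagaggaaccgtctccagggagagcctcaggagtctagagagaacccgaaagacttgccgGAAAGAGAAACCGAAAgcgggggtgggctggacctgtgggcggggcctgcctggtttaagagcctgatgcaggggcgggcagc
The Irf1 match, TTCCCCGAA, runs from base 90 to base 82 before the start. The Socs1 window holds 2 overlapping matches, GAAAGAGAAA from base 83 to 74 and GAAACCGAAA from base 77 to 68. Over both strands, 7.02% of 32851 windows of this length held the first motif and 2.98% the second. The Ifng window on chromosome 10 held TTCNNNGAA at its far end. Neither motif was found in the windows of Ifngr1, Ifngr2, Jak1 and Jak2, nor in a second Irf1 window. These are letter matches and were not tested as binding sites. In the GENCODE M21 annotation of GRCm38 all 7 members are protein-coding genes. Ifng lies at chr10:118441046-118445892 (plus strand) and Ifngr1 at chr10:19591949-19610229 (plus strand). Ifngr2 lies at chr16:91547072-91565623 (plus strand), Jak1 at chr4:101152367-101265282 (minus strand) and Jak2 at chr19:29251828-29313080 (plus strand). Irf1 lies at chr11:53770014-53778374 (plus strand) and Socs1 at chr16:10782240-10785536 (minus strand).

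The PBS library held 5088 barcodes and 64731604 UMIs (unique molecular identifiers, each 1 captured transcript), the AKK library 6610 and 74495998. After filtering, 4636 and 6172 cells remained, with medians of 6729 and 6347 UMIs. The libraries shared 8 cell barcodes, and all 8 were kept in both. Clusters fell by their markers into 16 classes, each called X-like, and 2 shallow clusters (160 PBS and 22 AKK cells) had no name. Ptprc, the gene of CD45, was seen in 86.2% to 100% of the cells of every class except tumour/epithelial-like cells, at 65.2% (PBS) and 70.9% (AKK) of cells. Levels are given in CPM, the UMIs of a gene per 1000000 UMIs of a class. On that scale the tumour/epithelial-like cells had 30.4 and 43.7 CPM of Ptprc at medians of 74344 and 77432 UMIs, and the other named classes 363 CPM or more. CPM values compare a gene between classes or libraries, not 1 gene with another, since the values are not scaled by length.

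NK/ILC1-like and T-like cells held most of the Ifng transcripts in both libraries. Of 995 Ifng UMIs in PBS, 488 were in NK/ILC1-like, 416 in T-like and 0 in gamma-delta T-like cells. Of 2301 in AKK, 1059 were in NK/ILC1-like, 1006 in T-like and 34 in gamma-delta T-like cells. The 3 classes together had 90.9% of the Ifng UMIs in PBS (88.9 to 92.6) and 91.2% in AKK (89.99 to 92.3). They made up 16.4% of PBS and 24.6% of AKK cells, so the source of the cytokine transcript was alike in the libraries while its share of the cells was not. Over all kept cells Ifng was at 16.7 CPM in PBS and 34.4 CPM in AKK, a ratio of 2.06 (1.91 to 2.22). A difference over all cells moves both with how many lymphocytes there were and with the level in each.

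In both main producer classes the difference was smaller than over all cells. In NK/ILC1-like cells Ifng was at 163 CPM in PBS (149 to 179) and 213 CPM in AKK (201 to 227). In T-like cells it was at 91.3 CPM (82.7 to 100.5) and 115 CPM (108 to 122). The intervals of the 2 libraries did not overlap in either class. The ratio, AKK over PBS, was 1.31 (1.17 to 1.46) in NK/ILC1-like and 1.26 (1.12 to 1.42) in T-like cells, under the 1.5-fold used here to call a difference. Gamma-delta T-like cells, with Il17a and Il1r1 among their leading genes, had no Ifng UMI in 26 PBS cells, a class total in which 3 counts are 12.8 CPM, and 38.3 CPM (26.5 to 53.5) in 102 AKK cells. Set against a floor of 3 counts in the PBS class, the AKK level was 2.99-fold. With 0 PBS UMIs the ratio has no upper limit, and its counting interval began at 2.30. The 34 AKK UMIs lay in few cells: 92 of the 102 had none, and 1 cell held 12.

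**Figure D1:**
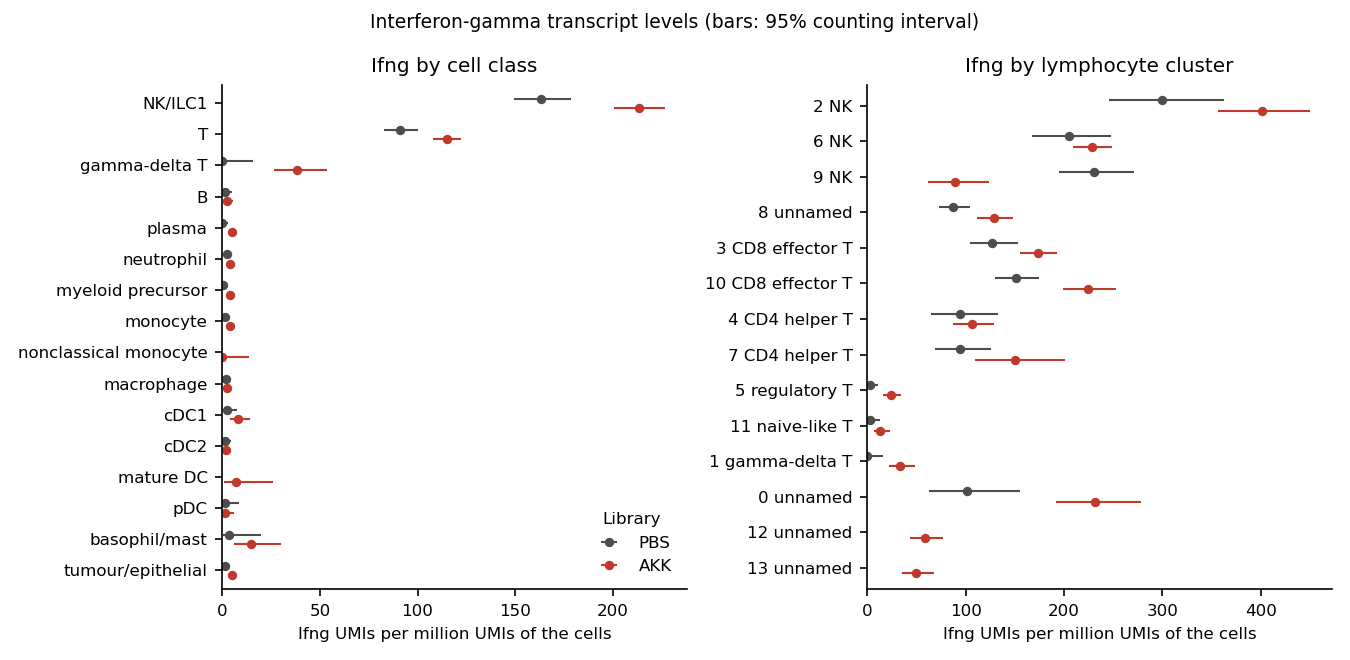
Ifng level (CPM, with 95% counting intervals) by cell class on the left and by lymphocyte cluster on the right, in the PBS (grey) and AKK (red) libraries; units with fewer than 20 cells in a library have no point there. NK/ILC1-like and T-like cells stand apart from all other classes, and NK cluster 2 has the highest level in both libraries.

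One cell weighed on the PBS value. A single NK-like cell held 123 Ifng UMIs of its 8524, which was 25.2% of the Ifng UMIs of PBS NK/ILC1-like cells, and the next cell held 24. Without the top cell of each library, a choice made after the values were seen, NK/ILC1-like Ifng was at 123 CPM (110.3 to 136) in PBS and 209.5 CPM (197 to 223) in AKK. The ratio was then 1.71 (1.52 to 1.93), past the 1.5-fold line. For T-like cells the same step gave 1.27 (1.13 to 1.43).

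The share of cells with Ifng gave the same order of the libraries. An Ifng UMI was seen in 45.9% of PBS and 59.3% of AKK NK/ILC1-like cells, at medians of 9784 and 8790 UMIs. With each cell thinned to 2000 UMIs, which left out 7 PBS and 20 AKK shallower cells, the shares were 18.2% (13.9 to 23.3) and 30.1% (26.2 to 34.3). In T-like cells they were 30.8% and 36.8%, and after thinning, without 22 and 24 shallower cells, 10.2% (7.48 to 13.4) and 16.0% (13.6 to 18.6). In neutrophil-like cells, which are not known as a main source, the unthinned shares were 1.43% and 1.73% at medians of 4933 and 4154 UMIs, and the thinned ones, without 138 and 236 shallower cells, 0.460% and 0.763%. Cells rich in the transcript were few: 8.19% of PBS (5.26 to 12.03) and 13.1% of AKK (10.3 to 16.2) NK/ILC1-like cells had 5 or more Ifng UMIs, and 4.62% (2.88 to 6.97) and 6.53% (4.997 to 8.36) of T-like cells. The 10% of T-like cells with the most Ifng held 71.9% of the class's Ifng UMIs in PBS and 62.4% in AKK.

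**Figure D2:**
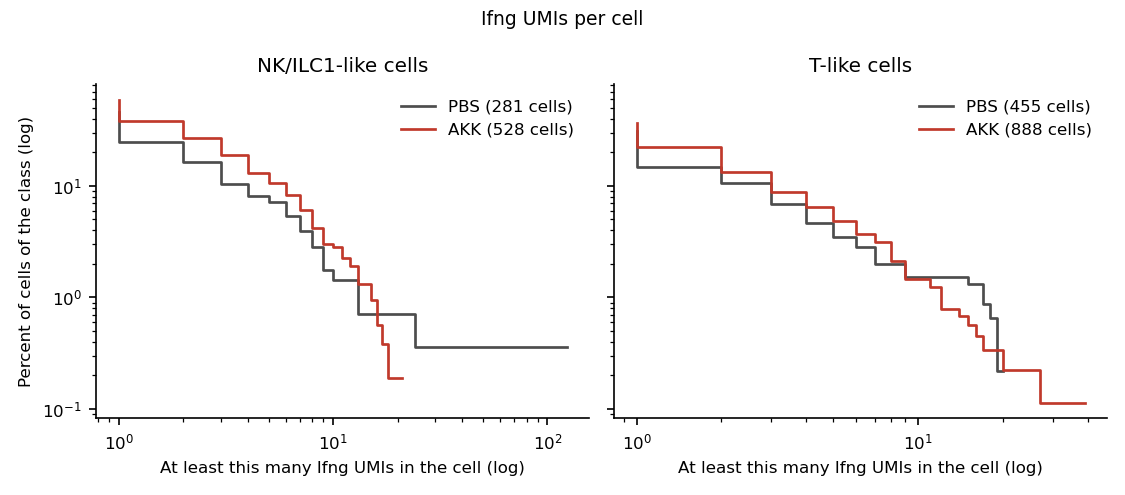
Percent of NK/ILC1-like cells (left) and T-like cells (right) with at least a given number of Ifng UMIs, both axes on a log scale, in the PBS (grey) and AKK (red) libraries. The AKK line lies above the PBS line at low numbers in both classes, and the PBS line of NK/ILC1-like cells ends at the single cell with 123 UMIs.

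Among lymphocyte clusters, Ifng was highest in NK-like cluster 2, led by Klra8, Klra4 and Ncr1, at 300 CPM in PBS and 401 CPM in AKK (ratio 1.34, 1.07 to 1.68). NK-like cluster 6 was at 205 and 228 CPM (1.11, 0.90 to 1.38). NK-like cluster 9, which held the cell with 123 UMIs, was at 231 and 88.9 CPM over 47 and 33 cells, and without the top cell of each library at 38.2 and 73.8 CPM (1.93, 1.08 to 3.49), which turned its direction. Unnamed cluster 8 of the NK/ILC1-like class, led by Gzmc, a granzyme gene, was at 87.2 and 129 CPM (1.48, 1.18 to 1.87). The NK-like clusters together were at 238 and 248.7 CPM (1.04, 0.922 to 1.18), and at 158 and 243 CPM without the top cell of each library (1.54, 1.33 to 1.78). So the size of the NK difference rested on 1 PBS cell. The clusters also held different parts of the class: cluster 6 had 56 PBS and 231 AKK cells.

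CD8 effector T-like cells had the highest level of the named T-cell subsets, at 141 CPM in PBS and 193 CPM in AKK (1.37, 1.19 to 1.57). Cluster 10, led by Cd8a and with the exhaustion-associated receptor genes Lag3 and Havcr2 among its 10 leading genes, was at 151 CPM in PBS and 224 CPM in AKK (1.48, 1.23 to 1.80). Cluster 3, led by Cd8a, Cd8b1 and Gzmk, was at 127 and 173 CPM (1.36, 1.10 to 1.70). The 2 clusters share a name but are not alike. Lef1, a marker of the naive-like set, was at 491 and 408 CPM in cluster 3 and at 49.0 and 55.5 CPM in cluster 10. In the naive-like cluster Lef1 was at 1990 and 1527 CPM. CD4 helper T-like clusters 4 and 7 were at 94.3 and 106 CPM and at 93.8 and 150.1 CPM. An unnamed cluster with Zbtb16 and Il4 among its leading genes, genes of innate-like T cells, was at 102 CPM in 25 PBS cells and 232 CPM in 59 AKK cells (2.28, 1.42 to 3.82). It held the AKK T-like cell with the most Ifng, 39 of the cluster's 116 AKK UMIs. The ratio thus leans on 1 cell, and it was not computed without that cell. Regulatory T-like cells, marked by Foxp3, had 2 Ifng UMIs in 68 PBS cells and 26 in 109 AKK cells, at 2.90 and 23.7 CPM. Naive-like T cells, with the lymph-node homing receptor gene Ccr7 among their leading genes, had 1 and 13 UMIs, at 2.35 and 13.4 CPM. Both stayed under every CD8 effector and CD4 helper cluster in each library.

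Outside the T-like, gamma-delta T-like and NK/ILC1-like classes Ifng was low. PBS values of the other classes with at least 50 cells ran from 0 in plasma-like to 2.52 CPM in neutrophil-like cells. The AKK values ran from 0 in nonclassical monocyte-like to 14.6 CPM in basophil/mast-like cells, where 7 UMIs were counted. All neighbours in that order had overlapping intervals. T and NK markers moved with these values: all 7 T and all 8 NK/ILC1 markers had UMIs in neutrophil-like cells, at a summed 29.8 and 16.7 CPM in PBS and 66.1 and 39.4 CPM in AKK. Per 1000 UMIs of those 15 markers there were 54.2 Ifng UMIs in PBS (36.5 to 77.3) and 35.8 in AKK (26.1 to 47.9) neutrophil-like cells. NK/ILC1-like cells themselves had 40.3 (36.8 to 44.0) and 36.9 (34.7 to 39.2), and T-like cells 28.2 and 34.7. Tumour/epithelial-like cells were lower on this scale, at 4.04 (2.21 to 6.78) and 16.5 (11.8 to 22.3). Their 3463 and 2489 marker UMIs came mostly from NK/ILC1 markers, whereas T markers were the larger part in neutrophil-like cells. The scale thus does not compare these 2 classes like with like. The part of RNA from T and NK cells in these values was not tested.

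The receptor genes had unlike distributions. Ifngr1, which encodes the ligand-binding chain, was highest in NK/ILC1-like cells, at 954 CPM in PBS and 1137 CPM in AKK. T-like cells were next in PBS at 761 CPM and had 741 CPM in AKK, where gamma-delta T-like cells stood between them at 933 CPM. Within T-like cells Ifngr1 did not follow Ifng. Regulatory T-like cells, low in Ifng, had 956 and 877 CPM, above CD8 effector T-like cells at 716 and 710 CPM. Naive-like T cells, also low in Ifng, had 463 and 541 CPM. Nonclassical monocyte-like cells (447 CPM in AKK), the conventional dendritic (cDC) classes and monocyte-like cells (254 and 379.8 CPM) followed. The cDC1-like cells had 426 and 397 CPM and the cDC2-like cells 348 and 349.6 CPM. Neutrophil-like cells were at 148 and 148 CPM and macrophage-like cells at 162 and 191 CPM. Levels were lowest in plasma-like (35.9 and 48.4 CPM), plasmacytoid dendritic-like (pDC-like, 38.4 and 45.3 CPM), basophil/mast-like (42.2 and 60.4 CPM) and tumour/epithelial-like cells (54.7 and 53.9 CPM). In AKK the intervals of these 4 overlapped from each to the next.

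Ifngr2, which encodes the chain needed for signal transfer, was nearly missing from NK/ILC1-like cells. They held 6 Ifngr2 UMIs in 281 PBS cells and 13 in 528 AKK cells, or 2.01 CPM (0.737 to 4.37) and 2.62 CPM (1.40 to 4.48). A UMI was seen in 2.14% and 2.27% of these cells, and an Ifngr1 UMI in 97.5% and 97.9%. Among classes with at least 50 cells, plasma-like cells, at 5.86 and 6.89 CPM, were the next lowest, and T-like cells had 25.7 and 24.1 CPM. The highest levels were in B-like cells in PBS (125 CPM, 108 to 145) and in monocyte-like cells in AKK (114 CPM, 104 to 124). In AKK the intervals of the first 5 classes (monocyte-like, cDC1-like, B-like, nonclassical monocyte-like and pDC-like) overlapped from each to the next. Neutrophil-like cells were at 76.1 and 73.7 CPM and macrophage-like cells at 70.9 and 86.3 CPM.

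Among T-cell subsets, the one with the most Ifngr2 had little Ifng, and the CD8 effector cells with the most Ifng had little Ifngr2. Naive-like T cells, whose cluster was made without the members, had 186 CPM of Ifngr2 in PBS and 149 CPM in AKK. CD8 effector T-like cells had 2.40 and 5.27 CPM, from 5 and 17 UMIs, and CD4 helper T-like cells 15.7 and 13.2 CPM. Regulatory T-like cells, low in Ifng too, were at 24.6 and 12.8 CPM and the gamma-delta T-like cluster at 119 and 73.0 CPM. The T-like cells were then split by their own Ifng. T-like cells with 2 or more Ifng UMIs had 3 Ifngr2 UMIs in 67 PBS cells (3.42 CPM, 0.70 to 9.99) and 8 in 200 AKK cells (3.497 CPM, 1.51 to 6.89). T-like cells with 0 Ifng UMIs had 35.7 CPM (29.2 to 43.2) and 37.0 CPM (31.9 to 42.6). That split largely restates the subsets, since naive-like T cells held 79 of the class's 117 Ifngr2 UMIs in PBS and 145 of 211 in AKK. Without the naive-like cluster, an alternative added after the data were seen, Ifngr2 in T-like cells with 0 Ifng UMIs was at 13.04 CPM (8.98 to 18.3) in PBS and 11.3 CPM (8.33 to 14.98) in AKK. Those with 2 or more had 3.42 CPM and 3.53 CPM (1.52 to 6.96), so the intervals overlapped in PBS and not in AKK. Ifngr1, in all T-like cells split the same way, was at 645 against 789 CPM in PBS and 683 against 761 CPM in AKK. Cells with 2 or more Ifng UMIs were deeper, with medians of 11929 and 9307.5 UMIs against 8762 and 8413. Over the 25 class-by-library profiles of at least 50 cells, Pearson's r between Ifng and Ifngr2 on the log2(CPM + 10) scale was -0.60, and between Ifng and Ifngr1 it was 0.69. Those profiles share 2 libraries, so the coefficients are descriptions.

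**Figure D3:**
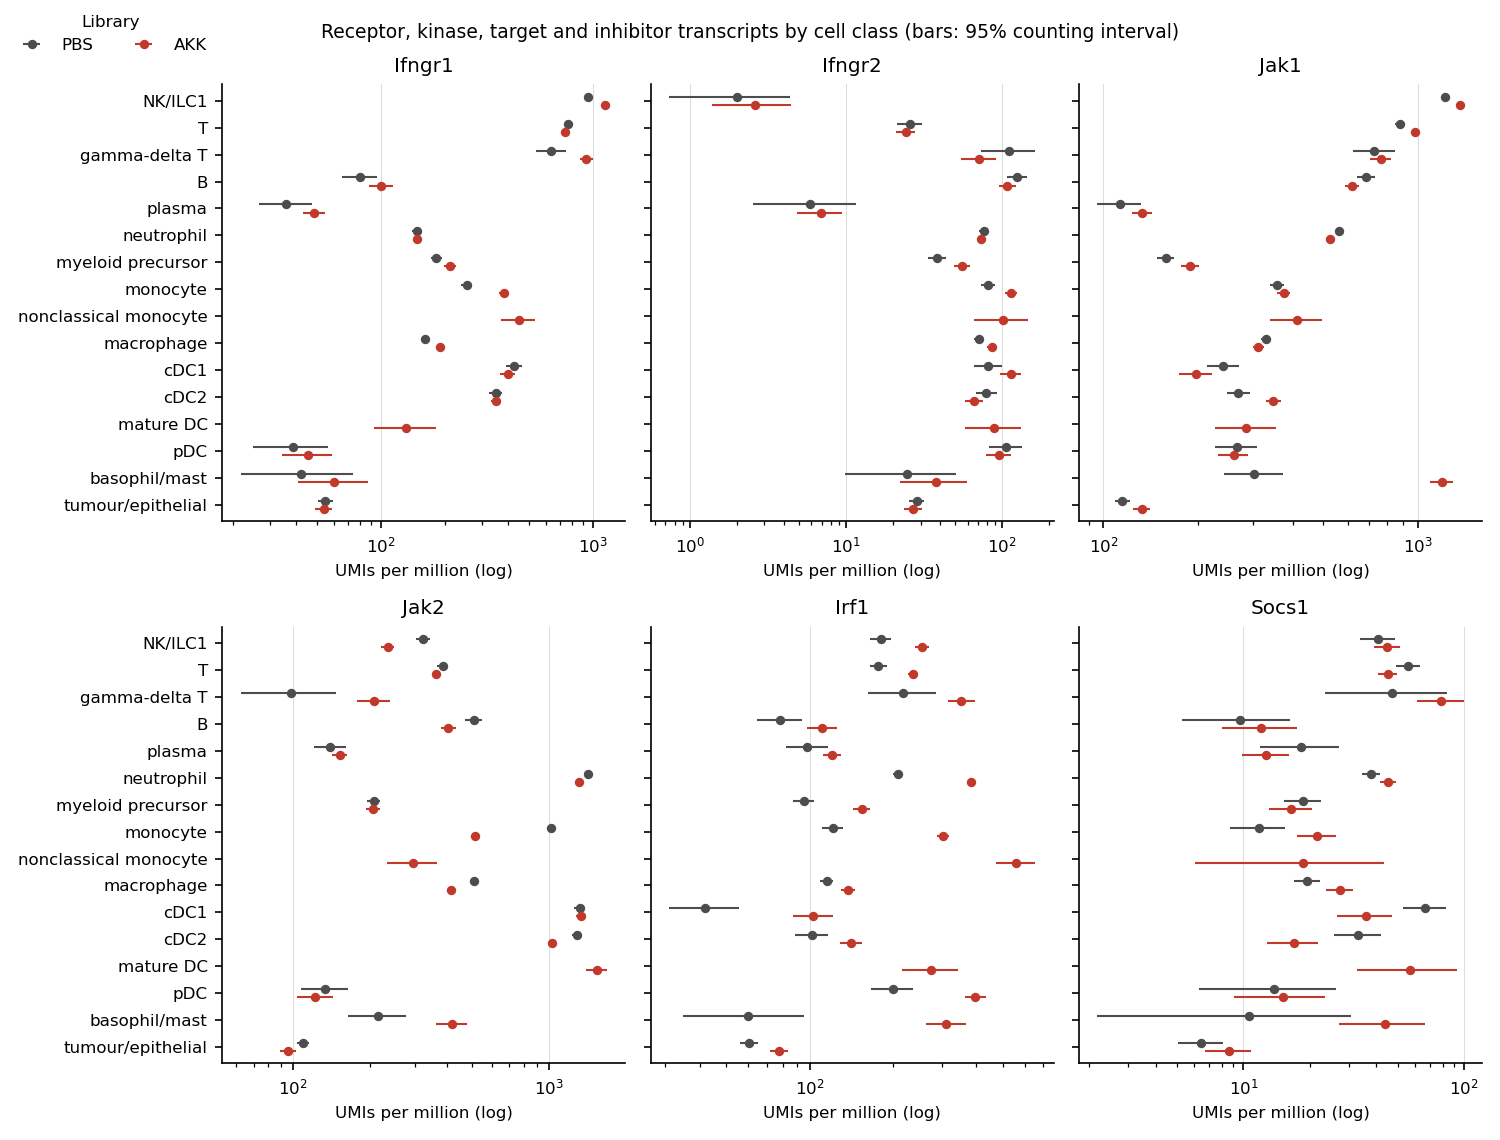
Levels of the receptor, kinase, target and inhibitor genes (CPM, log axes, 95% counting intervals) by cell class in the PBS (grey) and AKK (red) libraries; classes with fewer than 20 cells or with 0 UMIs in a library have no point there. Ifngr1 and Jak1 are highest in NK/ILC1-like cells, where Ifngr2 is at its lowest among the points, and Jak2 is high in neutrophil-like and conventional dendritic classes.

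The kinase genes divided the classes in another way. Jak1, used by many cytokine receptors, was high in lymphocytes: 1224 and 1366 CPM in NK/ILC1-like, 876 and 978 CPM in T-like and 685 and 618 CPM in B-like cells. It was lowest in plasma-like (113 and 133 CPM) and tumour/epithelial-like cells (115 and 132 CPM). Basophil/mast-like cells were at 303 CPM in PBS and 1192 CPM in AKK, the second highest class there, but 28 of the 29 PBS cells were in a mast-cell cluster and 37 of the 53 AKK cells in a basophil cluster, so these values do not compare like cells. That basophil cluster alone had 1914 CPM in AKK, above the NK/ILC1-like class. Jak2, which also serves the receptors of growth factors for myeloid cells, was highest in some of the myeloid classes. Neutrophil-like cells had 1429.5 CPM in PBS (1408 to 1451) and 1319.7 CPM in AKK (1299 to 1340.5). The cDC1-like cells had 1324 and 1335 CPM, cDC2-like 1286 and 1033 CPM, and the few mature dendritic-like cells (10 and 22) 1923 and 1539 CPM. NK/ILC1-like cells had 323 and 234 CPM. Other myeloid classes were not above lymphocytes. Macrophage-like cells, at 510 and 413 CPM, were near B-like cells, at 508 and 405 CPM. Myeloid precursor-like cells, at 206 and 206 CPM, were under T-like cells, at 385 and 364 CPM.

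The genes whose class profiles were most like those of the members were picked by that likeness, so their patterns are no further support. For Ifng they were Klrc1 (r = 0.98), Ctsw and Fasl, genes of NK and cytotoxic T cells, and for Ifngr1 Prex1 (0.88), Emb and Tab2. For Ifngr2 they were Sgms1 (0.85), March1 and Dennd5a, for Jak1 Vps37b (0.92), Ddx5 and Zc3hav1, and for Jak2 Arih2 (0.88), Slc25a20 and Chd7. Irf1 was nearest to Prr13 (0.88), Fam53c and Itgal, and Socs1 to Rinl (0.91), D16Ertd472e and Hcst. Each r is over the 25 profiles, among 11270 genes.

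Irf1 was the member that differed between the libraries in every class compared. In PBS, among classes with at least 50 cells, its level was highest in neutrophil-like (208 CPM), NK/ILC1-like (181 CPM) and T-like cells (177 CPM), the last 2 with overlapping intervals. In AKK it was highest in nonclassical monocyte-like (558 CPM), pDC-like (398 CPM) and neutrophil-like cells (382 CPM), again with overlap of the last 2. The first 2 of these had under 50 PBS cells and so no PBS rank. Nonclassical monocyte-like cells had 712 CPM in 9 PBS cells (0.784, 0.503 to 1.27). The pDC-like cells had 199 CPM in 42 PBS cells (1.99, 1.64 to 2.44). Of the classes with at least 50 cells, tumour/epithelial-like cells had the lowest level in both libraries, at 60.4 and 77.6 CPM. In all 8 classes with at least 100 cells per library the ratio, AKK over PBS, was above 1 with an interval that left out 1, from 1.19 in macrophage-like to 2.51 in monocyte-like cells. Of the 8370 genes measured in all 8 classes, 38 (0.454%) had that pattern. Irf1 ratios stayed above 1 in all 8 classes under both other scalings tried.

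In neutrophil-like cells Irf1 was at 208 CPM in PBS (2480 UMIs, 2095 cells) and 382 CPM in AKK (4554 UMIs, 2595 cells), a ratio of 1.84 (1.75 to 1.93). The class holds clusters in unlike shares, so the clusters were read one by one. Of the 7 with at least 30 cells per library, 6 had an interval above 1. In cluster 3, led by Cxcl3 and Acod1, Irf1 was at 227 and 453 CPM (2.00, 1.78 to 2.24). In cluster 10, led by S100a9 and Retnlg, it was at 176 and 407 CPM (2.31, 2.04 to 2.62). In cluster 15, the immature cells led by Ngp and Camp, it was at 78.3 and 159.9 CPM (2.04, 1.68 to 2.48). The highest level of all was in cluster 6, led by the antiviral gene Rsad2, with 343 CPM in 43 PBS and 705 CPM in 133 AKK cells. Cluster 5, in which heat shock genes Hspa1a and Hspa1b are among the 10 leading genes, had 258 and 221 CPM (0.86, 0.73 to 1.01), the reverse order. With the 7 clusters weighted alike the ratio was 1.69.

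**Figure D4:**
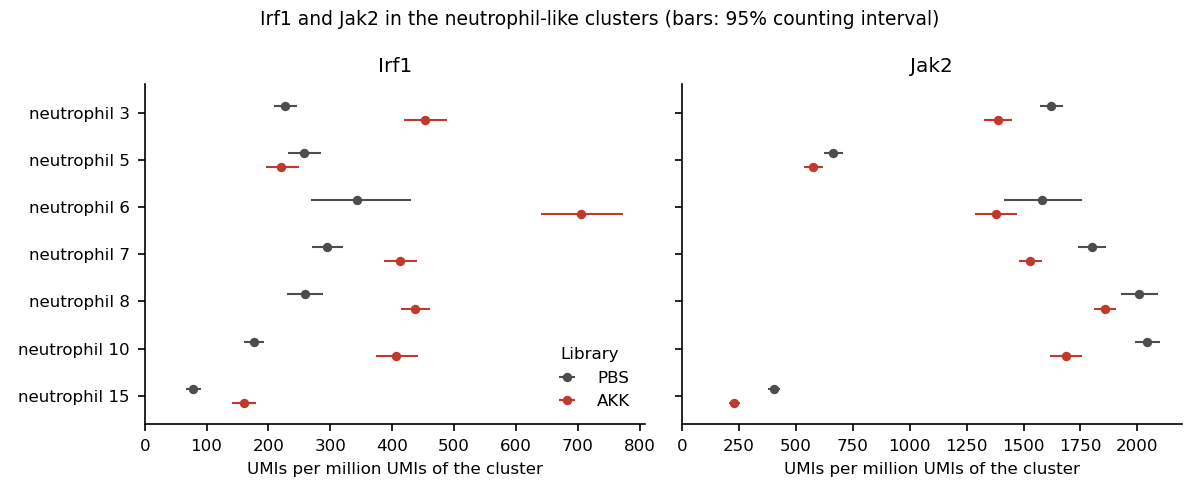
Irf1 (left) and Jak2 (right) in the 7 neutrophil-like clusters with at least 30 cells per library, as CPM with 95% counting intervals, in the PBS (grey) and AKK (red) libraries. Irf1 is higher in AKK in 6 of 7 clusters, all but cluster 5, and Jak2 is lower in AKK in all 7.

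Monocyte-like cells, with Vcan and F13a1 among their leading genes, had the largest Irf1 ratio of the classes compared, 121 CPM in PBS and 304 CPM in AKK (2.51, 2.27 to 2.79). Myeloid precursor-like cells, with primary granule genes such as Mpo and Elane, had 95.1 and 155 CPM (1.63, 1.46 to 1.82), and their summed neutrophil markers were at 65624 and 30189 CPM, whose part was not tested. In macrophage-like cells the values were 115 and 138 CPM (1.19, 1.10 to 1.295). B-like cells had 78.1 and 111 CPM (1.42, 1.13 to 1.79). NK/ILC1-like cells had 181 and 255 CPM (1.41, 1.27 to 1.56) and T-like cells 177 and 237 CPM (1.34, 1.23 to 1.45). Read by cluster, these last 2 differences were uneven. Of the 4 T-like clusters with at least 30 cells per library, 2 had an interval above 1. The largest, cluster 14, was at 267 and 263 CPM (0.982, 0.868 to 1.11), with 157 PBS and 412 AKK cells. Of 2 such NK/ILC1-like clusters, 1 had an interval above 1. Among the lymphocyte clusters, the ratio was 1.66 (1.29 to 2.14) in NK-like cluster 2 and 1.13 (0.931 to 1.38) in cluster 6. The part of cluster shares was not tested. Among T cells, regulatory T-like cells stood out with 155 and 323 CPM (2.09, 1.68 to 2.62), whereas naive-like T cells, which had the highest PBS level of the lymphocyte clusters at 416 CPM, had 383 CPM in AKK (0.920, 0.768 to 1.11). T-like cells without Ifng UMIs had more Irf1 in AKK, 270 against 185 CPM. Those with 2 or more Ifng UMIs had 167 CPM in AKK and 177 CPM in PBS, with overlapping intervals. NK/ILC1-like cells with 2 or more Ifng UMIs differed, with 209 CPM of Irf1 in PBS (177 to 246) and 302 CPM in AKK (278 to 327).

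**Figure D5:**
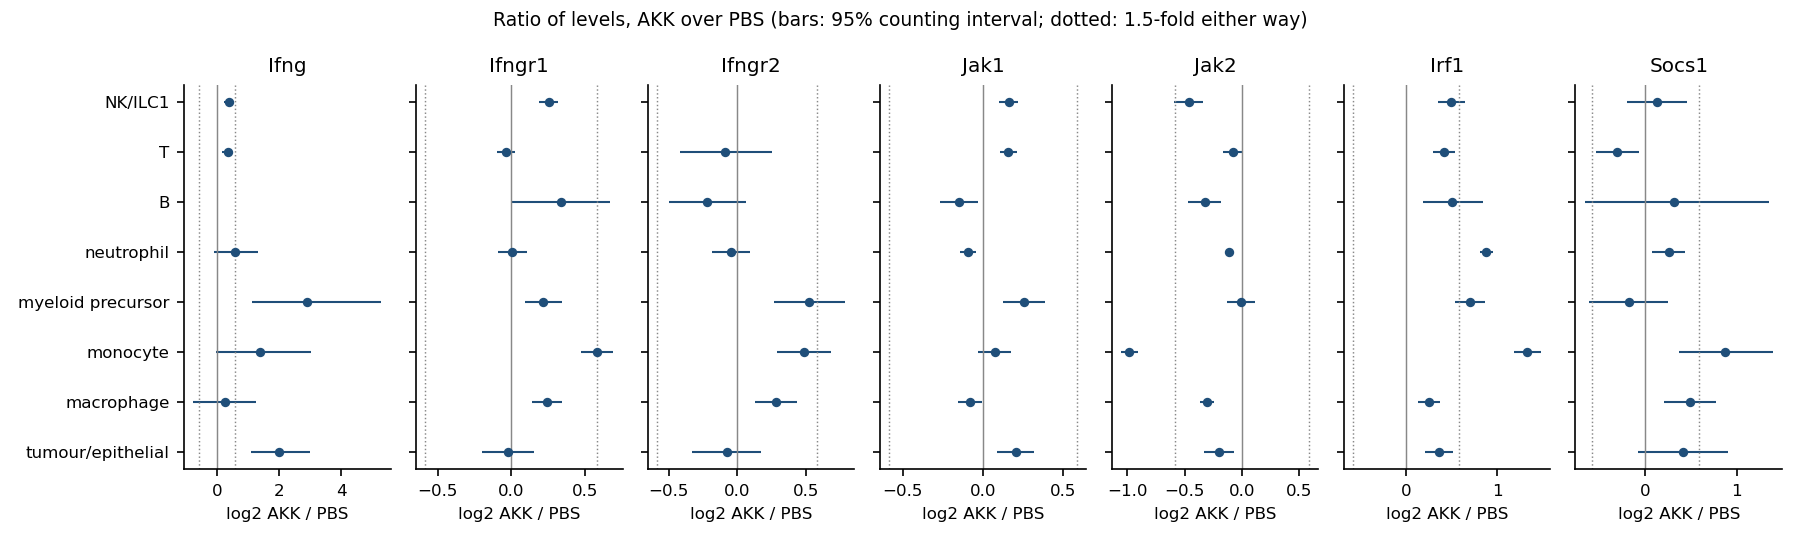
Log2 ratio of the level in AKK to that in PBS for each member in the 8 classes with at least 100 cells per library, with 95% counting intervals; dotted lines mark 1.5-fold either way, each panel has its own x axis, and members with fewer than 20 UMIs in a class have no point. All Irf1 points lie above 0, and the Jak2 point of monocyte-like cells is the lowest of the plot.

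Jak2 was mostly lower in AKK. Its interval lay below 1 in 6 of the 8 classes, and 140 of the 8370 genes (1.67%) had an interval below 1 in at least 6. The ratios of T-like and myeloid precursor-like cells were also under 1 with intervals that held 1, and that of the precursors changed side with a mitochondrial limit of 10% or with cells weighted alike. An interval below 1 in all 8, which Jak2 did not have, was found for 0.466% of them. In monocyte-like cells it was at 1019 CPM in PBS (4339 UMIs) and 516 CPM in AKK (2374 UMIs), a ratio of 0.506 (0.481 to 0.532). Macrophage-like cells had 510.2 and 413 CPM (0.810, 0.775 to 0.847), B-like cells 508 and 405 CPM (0.798) and NK/ILC1-like cells 323 and 234 CPM (0.725, 0.665 to 0.790). In neutrophil-like cells the ratio of the class was 0.923 (0.903 to 0.943), but each of the 7 clusters was lower in AKK, from 0.570 in cluster 15 to 0.925 in cluster 8. Weighted alike the clusters gave 0.815. Myeloid precursor-like cells were at 206 and 206 CPM (0.996, 0.916 to 1.08). Jak2 was higher in AKK in the smaller class of gamma-delta T-like cells, at 98.3 and 207 CPM (2.11, 1.36 to 3.41), and in T-like cluster 21, at 319.5 and 387 CPM (1.21, 1.10 to 1.34). Neutrophil markers moved with the monocyte-like Jak2 level: all 9 had UMIs in that class, with a summed 6490.5 CPM in PBS and 2649 CPM in AKK, which were 7.29% and 3.62% of the level in neutrophil-like cells. The median mitochondrial share of monocyte-like cells was 4.94% and 3.304%. Their part in the Jak2 result was not tested.

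Socs1 had few UMIs, and its classes were harder to rank. Among classes with at least 50 cells, T-like cells led in PBS at 55.7 CPM and gamma-delta T-like cells in AKK at 78.9 CPM. Gamma-delta T-like cells had no PBS rank, with 47.0 CPM in 26 cells (1.68, 0.882 to 3.51). In AKK neutrophil-like, T-like, NK/ILC1-like and basophil/mast-like cells followed, between 43.7 and 45.2 CPM with overlapping intervals. Socs1 was at 11.7 CPM in PBS (50 UMIs) and 21.5 CPM in AKK (99 UMIs) monocyte-like cells, a ratio of 1.83 (1.29 to 2.63). In macrophage-like cells it was at 19.5 and 27.3 CPM (1.40, 1.15 to 1.71). T-like cells had the reverse order, with 55.7 and 45.2 CPM (0.811, 0.691 to 0.953). The 2 cDC classes also had lower values in AKK: 66.6 and 35.8 CPM in 41 and 54 cDC1-like cells, and 33.1 and 16.9 CPM in 83 and 163 cDC2-like cells. The cDC2-like cells of the libraries came from clusters in unlike shares: cluster 29, with 63 and 84 cells, had 38.7 and 15.6 CPM (0.403, 0.259 to 0.617), whereas cluster 28, with 18 and 56 cells, had 1 and 21 UMIs, at 3.497 and 21.3 CPM.

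The largest Ifngr1 ratio of the 8 classes was in monocyte-like cells, with 254 and 379.8 CPM of Ifngr1 (1.496, 1.39 to 1.62) and 81.3 and 114 CPM of Ifngr2 (1.40, 1.22 to 1.61). Myeloid precursor-like cells had the largest Ifngr2 ratio, with 38.4 and 55.3 CPM (1.44, 1.20 to 1.72). NK/ILC1-like cells had an Ifngr1 ratio of 1.19 (1.14 to 1.25), while in T-like cells it was 0.974 (0.935 to 1.02). In neutrophil-like cells the class ratios of the receptor genes were 1.005 (0.940 to 1.07) and 0.968 (0.882 to 1.06), but the clusters differed. Ifngr1 was at 125 and 72.7 CPM in cluster 3 (0.580, 0.460 to 0.726), and at 207 and 239 CPM in cluster 10 (1.15, 1.001 to 1.32). Ifngr2 was at 76.1 and 38.5 CPM in cluster 15 (0.506, 0.376 to 0.676), and in the other 6 clusters its interval held 1. Jak1 ratios lay between 0.902 and 1.19 in the 8 classes, and those of monocyte-like and macrophage-like cells changed side of 1 under another scaling or weighting of cells. The neutrophil-like ratio, 0.936 for the class, was 1.03 with its 7 clusters weighted alike, and those clusters ran from 0.588 in cluster 5 (1339.8 and 788 CPM) to 1.41 in cluster 15 (237 and 335 CPM).

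By count, monocyte-like cells had the most members past 1.5-fold: Ifng, Irf1 and Socs1 were higher and Jak2 lower in AKK, 4 of 7 measured members, where 25.9% of all measured genes were past that fold. Neutrophil-like cells had 2 of 7, Ifng and Irf1, beside 17.8% of all genes. Myeloid precursor-like cells also had 2 of 7, Ifng and Irf1, beside 19.9%. Tumour/epithelial-like cells had 1 of 7, Ifng, beside 16.1%. None passed in macrophage-like (0 of 7, 20.1%), T-like (0 of 7, 16.4%), NK/ILC1-like (0 of 6, 18.1%) or B-like cells (0 of 6, 17.5%). The Ifng calls rest on low counts: 30 and 45 UMIs in neutrophil-like, 6 and 17 in monocyte-like, 3 and 19 in myeloid precursor-like and 14 and 41 in tumour/epithelial-like cells. In the first 2 the interval held 1. The neutrophil-like Ifng call was at the line, with a log2 ratio of 0.59, and was lost under TMM (0.52), under DESeq2 scaling (0.52), with a mitochondrial limit of 10% (0.58) and with cells weighted alike (0.32). The Socs1 call of monocyte-like cells was lost with no doublets removed, at 0.55. With cells weighted alike, Ifngr2 (0.60, from -0.08) and Irf1 (0.86, from 0.36) were past the fold in tumour/epithelial-like cells. Summed T markers went beside them from 28.0 to 41.0 CPM in monocyte-like, from 22.4 to 39.8 CPM in myeloid precursor-like and from 20.6 to 31.7 CPM in tumour/epithelial-like cells, and summed NK/ILC1 markers went from 17.4 to 30.6, from 11.9 to 47.9 and from 285 to 269 CPM. All 15 of these markers had UMIs in each of the 3 classes, and their part in the Ifng values was not tested. TMM and DESeq2 scaling put the log2 ratios of macrophage-like cells 0.11 lower, those of monocyte-like cells 0.13 and 0.14 lower and those of myeloid precursor-like cells 0.11 lower.

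Genes known to respond to interferon-gamma were mostly higher in AKK in neutrophil-like and monocyte-like cells. Of the 22 listed, 21 were higher past 1.5-fold in neutrophil-like cells, and the median log2 ratio of CPM + 5 was 0.97 against 0.04 over all genes. Gbp2, a guanylate-binding GTPase, was at 84.8 and 381 CPM (4.49, 4.19 to 4.81), Gbp5 at 16.1 and 69.8 CPM, and Cxcl9, a chemokine for CXCR3-bearing T cells, at 1.76 and 28.0 CPM. In monocyte-like cells 15 of 20 measured were higher and 1 lower (median 0.85 against 0.10), with Cxcl9 at 11.98 and 111 CPM (9.30, 6.97 to 12.7) and the immunity-related GTPase gene Igtp at 6.58 and 34.1 CPM. Myeloid precursor-like cells had 9 of 20 higher and 1 lower (0.43 against 0.08), and B-like cells 8 of 17 higher and 1 lower (0.43 against 0.04). Macrophage-like cells had 9 of 22 higher and 2 lower (0.37 against 0.07), and 18 of the 22 had a log2 ratio above 0. Cxcl9 was at 90.2 and 275 CPM there. The 2 lower genes were Cxcl10, a chemokine for the same receptor, at 483 and 219.8 CPM (0.455, 0.430 to 0.481), and Gbp5, at 105 and 39.0 CPM. T-like cells had 4 of 21 higher (0.19 against -0.01), NK/ILC1-like cells 2 of 20 higher and 1 lower (0.14 against 0.01) and tumour/epithelial-like cells 4 of 22 higher and 2 lower (0.19 against 0.04). Of all genes, 11.1% were higher in neutrophil-like, 15.4% in monocyte-like, 11.8% in myeloid precursor-like, 10.6% in B-like and 10.0% in macrophage-like cells. The share was 6.50% in T-like, 7.91% in NK/ILC1-like and 9.83% in tumour/epithelial-like cells. Lower were between 6.31% (tumour/epithelial-like) and 10.5% (monocyte-like) of all genes. The NK/ILC1-like counts were near these shares. In tumour/epithelial-like cells Cxcl9 was at 26.0 CPM in PBS and 3.26 CPM in AKK.

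Among 16 partners and regulators of the pathway, Irf8, a factor of monocyte and dendritic cell development, was at 57.9 and 196 CPM in myeloid precursor-like (3.39, 2.99 to 3.84) and at 112 and 209 CPM in monocyte-like cells. Ciita, the activator of MHC class II genes, was at 50.2 and 93.9 CPM in macrophage-like and 15.3 and 27.8 CPM in monocyte-like cells. Socs3, a related inhibitor, was at 337 and 192 CPM in macrophage-like cells (0.569, 0.535 to 0.605) and Cish, another of that family, at 173 and 108 CPM in NK/ILC1-like cells. Of all genes, 15.4% were higher in monocyte-like cells (median 0.10), 11.1% in neutrophil-like (0.04), 10.6% in B-like (0.04), 11.8% in myeloid precursor-like (0.08) and 10.0% in macrophage-like cells (0.07). The counts past 1.5-fold were 5 higher and 0 lower of 16 in monocyte-like cells (median log2 ratio 0.49), 3 and 0 of 16 in neutrophil-like (0.18), 3 and 0 of 15 in both B-like (0.19) and myeloid precursor-like (0.21), 2 and 1 of 16 in macrophage-like (0.26) and 2 and 2 of 16 in NK/ILC1-like cells (0.11), a share near the 18.1% of all genes there. T-like and tumour/epithelial-like cells had none of 15 and none of 16 past that fold, with medians of 0.00 and 0.10. Ciita is also in the list of responding genes.

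The list of 18 genes that induce Ifng or control its transcription gave a mixed result. In macrophage-like cells 5 of 16 measured were higher and 6 lower, beside 10.0% higher and 10.1% lower of all genes: Il12b, a subunit of interleukin-12, was at 30.04 and 2.93 CPM (0.097, 0.060 to 0.150) and Il18, another inducer of Ifng, at 32.8 and 16.0 CPM (0.486, 0.392 to 0.599). In neutrophil-like cells 5 of 17 were higher and 1 lower, beside 11.1% and 6.69% of all genes, with Il15, a growth factor of NK cells, at 232 and 436 CPM (1.88, 1.79 to 1.97). In monocyte-like cells 7 of 14 were higher and 2 lower, beside 15.4% and 10.5%, with Il15 at 30.1 and 57.1 CPM. Myeloid precursor-like cells had 5 of 17 higher and 3 lower, beside 11.8% and 8.02%, with Il15 at 11.03 and 26.3 CPM, and tumour/epithelial-like cells 5 of 15 higher and 1 lower, beside 9.83% and 6.31%. Among the producers, T-like cells had 2 of 15 higher, beside 6.50%, with the T-box factor gene Eomes at 20.4 and 42.4 CPM (2.08, 1.65 to 2.64), and NK/ILC1-like cells 2 of 14 lower, beside 10.2%, with Nfatc2 at 117 and 68.1 CPM (0.583, 0.501 to 0.679). B-like cells had 3 of 11 higher and 1 lower, beside 10.6% and 6.92%. The medians of the log2 ratio were 0.16 in macrophage-like, 0.29 in neutrophil-like, 0.34 in monocyte-like, 0.15 in myeloid precursor-like, -0.05 in tumour/epithelial-like, 0.04 in T-like, 0.17 in NK/ILC1-like and 0.15 in B-like cells, with the all-gene medians between -0.01 and 0.10.

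Stress genes were read beside these lists. Of 17 genes of dissociation stress, none was higher and 5 were lower in AKK macrophage-like cells, with Jun at 499 and 268 CPM. Of all genes there, 10.0% were higher and 10.1% lower. The median log2 ratio was -0.36, against 0.07 over all genes. In neutrophil-like cells 3 were lower, beside 6.69% of all genes, and in T-like cells 3, beside 9.91%. Myeloid precursor-like cells had 3 higher and 1 lower, beside 11.8% and 8.02% of all genes. Monocyte-like cells had 2 lower, beside 10.5%, and B-like cells 1 lower, beside 6.92%. NK/ILC1-like cells had 1 each way, beside 7.91% higher and 10.2% lower. Tumour/epithelial-like cells also had 1 each way, beside 9.83% and 6.31%. The part of stress in the member values was not tested.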

How the data were processed

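The authors deposited, for each of 2 libraries (10x Genomics 3′ v3 kit, per the labels), a matrix of raw UMI counts per gene and barcode. Per the file headers the matrices come from Cell Ranger 7.1.0, but version 5.0.1 and mm10 stand in the submitters' processing notes. The sources used here do not say whether intron reads were counted, which can move counts of long genes such as Jak1 and Jak2. Barcodes with at least 200 genes and under 15% mitochondrial UMIs were kept. Scrublet scores (scanpy 1.11.5) removed the top 0.8% per 1000 barcodes as doublets, 197 PBS and 345 AKK cells. Both libraries were clustered together on 2000 variable genes without the 78 member and list genes (30 components, 15 neighbours, Leiden resolution 1), and 34 of 36 clusters were named from 23 marker sets. T, gamma-delta T and NK/ILC1-like cells were clustered again into 14 clusters, of which 4 stayed unnamed. Settings of the naming score were set with the clusters in view. Names are rebuilt here and may differ from the study's.

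UMIs were summed per class and library as CPM, with exact Poisson intervals, exact conditional binomial intervals for ratios and Clopper-Pearson intervals for shares. A gene was measured with at least 20 UMIs in a class over both libraries. No test was run, since each group is 1 sample. The ratio intervals were run on simulated class sums with counting error only. Those sums have no spread between cells, so the run says nothing on uneven genes such as Ifng. Named genes were the members, up to 4 genes per list and class with the largest ratio past 1.5-fold and an interval that leaves out 1 (a selection is printed, and some list genes are not reported here), and the 3 nearest profiles of each member. Members, lists and rules were chosen with earlier results of these data known. Alternatives used edgeR 4.0.16 (TMM) and DESeq2 1.42.0 size factors, other filters, other clusterings, weighting of cells and thinning.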

Additional observations from a re-analysis of the deposited data

How the results depend on the processing

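Over 57 results and 14 settings, 466 alternative values were computed: 430 stayed within the counting interval of the value reported, or within 1.5 times a count, 36 moved outside it, and none of the differences past the fold turned its direction. The AKK share of Ifng UMIs in T-like, gamma-delta T-like and NK/ILC1-like cells was 88.9% with no doublets removed, 92.4% with each cell weighted alike and 93.2% with every cell thinned. The log2 ratio of Ifng was 0.77 in NK/ILC1-like cells without the 1 cell with the most Ifng UMIs, a choice made after seeing the data, and 0.55 in T-like cells with each cell weighted alike. Irf1 was at 0.13 in macrophage-like cells with member and list genes kept in the clustering, 1.02 in monocyte-like cells at a clustering resolution of 2.0 and 0.79 in neutrophil-like cells with each cell weighted alike. Ifngr1 in monocyte-like cells was at 0.45 under TMM and 0.45 under DESeq2 scaling. Jak2 in monocyte-like cells was at -0.80 with at least 500 genes per cell, -0.82 at resolution 2.0, -1.11 under TMM, -1.12 under DESeq2 scaling and -1.17 with each cell weighted alike. With a fold of 2 in place of 1.5, 4 members passed over all classes, where 9 had. With no doublets removed, Irf1 (0.65) and Socs1 (0.87) in B-like cells, Ifng in macrophage-like cells (0.92) and Ifngr1 in monocyte-like cells (0.63) were past 1.5-fold too, and Ifng in macrophage-like cells turned side with each cell weighted alike (-0.18) or without its top cell (-0.06). The cause of these shifts was not tested. No paired analysis was possible because each group is 1 library.

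With 1 library per group no interval holds the spread between animals, so a difference between these libraries cannot be told apart from one between mice, tumours or preparations. Depth limits Ifngr2 in NK/ILC1-like cells, with 6 and 13 UMIs, and Ifng outside lymphocytes. Classes with under 100 cells in a library were described only.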
